A study of Mus musculus with 18 samples.

Results

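The potassium channel genes described here are those whose symbol in the deposited tables begins with Kcn and a letter other than j, which leaves out the inward rectifiers. The rule found 64 genes of the 13479 listed over both parts of the study. Of these, 63 were listed in all 6 deposited comparisons, and Kcnk5, which lies close to the listing minimum, in fewer.

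Potassium channels let potassium leave the cell, which repolarizes neurons after a spike and sets their resting potential. Voltage-gated families (Kcna, Kcnb, Kcnc, Kcnd, Kcnh and Kcnq) open on depolarization, the Kcnma, Kcnn and Kcnt families open with intracellular calcium or sodium, and the tandem-pore family Kcnk carries leak currents. Other members form no channel of their own: Kcnf, Kcng, Kcns and Kcnv are silent subunits that join Kcnb channels and change their gating, and Kcnab, Kcnip, Kcnmb and Kcne are ancillary subunits. Spreading depolarization (SD) is a wave that travels slowly through grey matter, depolarizes its neurons and glia almost fully and steeply raises extracellular potassium.

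Cortex RNA of healthy female C57BL/6 mice aged 7 to 8 weeks was sequenced after 4 waves of SD in 2 h. In the KCl system wild-type mice had SD set off by focal KCl, and NaCl was given to sham mice. In the optogenetic system all mice, sham included, were Thy1-ChR2-YFP heterozygous, a transgene that puts a light-gated channel into neurons under the Thy1 promoter, and light of 2 mW lasting 20 s set off SD. There are 3 stimulated and 3 sham mice per system, with a library for either hemisphere of a stimulated mouse and 1 library per sham mouse, so 18 libraries stand for 12 mice. The side taken from sham mice and the time of tissue collection are not given in the sources used here.

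The deposited values are FPKM (fragments scaled to transcript length and library size), so they are per length and can be set side by side between genes. They carry no read counts, and the depth of each library is unknown. Of 8 genes induced by neuronal activity, 8 were called higher in the SD hemisphere than contralaterally over both systems, which checks the labels of the sides. The cortical markers Slc17a7 and Tbr1 were at 91.1 FPKM and 17.6 FPKM or more in every library. Markers of tissue beneath the cortex differed between libraries: the summed level of 8 striatal genes ranged from 65.6 to 407 FPKM and that of 10 choroid plexus genes from 44.0 to 1330 FPKM.

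The 64 genes ranged in mean level from 0.491 FPKM for Kcnk5 to 54.1 FPKM for Kcnab2. Summed over the members, a library held between 651 and 769 FPKM. The sums averaged 676 ± 36.6 FPKM in the KCl SD hemisphere, 667 ± 12.7 contralaterally and 685 ± 21.0 in NaCl sham (standard deviation, n = 3, here and below after ±). The optogenetic sums averaged 725 ± 12.6 FPKM in the SD hemisphere, 732 ± 38.5 contralaterally and 723 ± 30.6 in sham. Within a system the 3 groups overlapped. On the FPKM scale 13 members averaged 20 or more over the 18 libraries, 22 lay between 5 and 20, 24 between 1 and 5 and 5 under 1.

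Among the pore-forming subunits of the voltage-gated families, Kcna2 of the axonal delayed rectifiers averaged 29.8 FPKM, Kcnd2 of the dendritic A-type current 28.1 and Kcnq3 of the M-current 23.4. Kcnh3 averaged 23.1 FPKM, Kcna1 23.0 and Kcnc1, of the fast delayed rectifiers that allow high firing rates, 20.0. Lower members of the same families were Kcna5 at 1.15 FPKM, Kcnd1 at 1.71, Kcnb2 at 3.51 and Kcnh6 at 0.549.

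Of the calcium- and sodium-activated channels, the large-conductance channel gene Kcnma1 averaged 22.0 FPKM and was the most even member, with a highest library only 1.14 times its lowest. The small-conductance gene Kcnn2 averaged 5.29 FPKM and the sodium-activated gene Kcnt1 7.37. The leak channels were led by Kcnk1 at 42.6 FPKM, followed by Kcnk2 at 14.3 and Kcnk9 at 7.90, and Kcnk5 was lowest at 0.491. The highest member of all was an ancillary subunit, Kcnab2, at 54.1 FPKM, and Kcnab genes made up 13.0% of the members' sum. Kcnip3 averaged 32.2 FPKM and Kcnip2 25.3, both calcium sensors that bind Kcnd channels, and Kcnmb4, the neuronal beta subunit of Kcnma1, averaged 14.8. Among the silent subunits Kcnf1 averaged 24.0 FPKM, Kcnv1 19.5, Kcns2 6.36 and Kcng1 4.11, while Kcng3 was at 0.664.

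**Figure D1:**
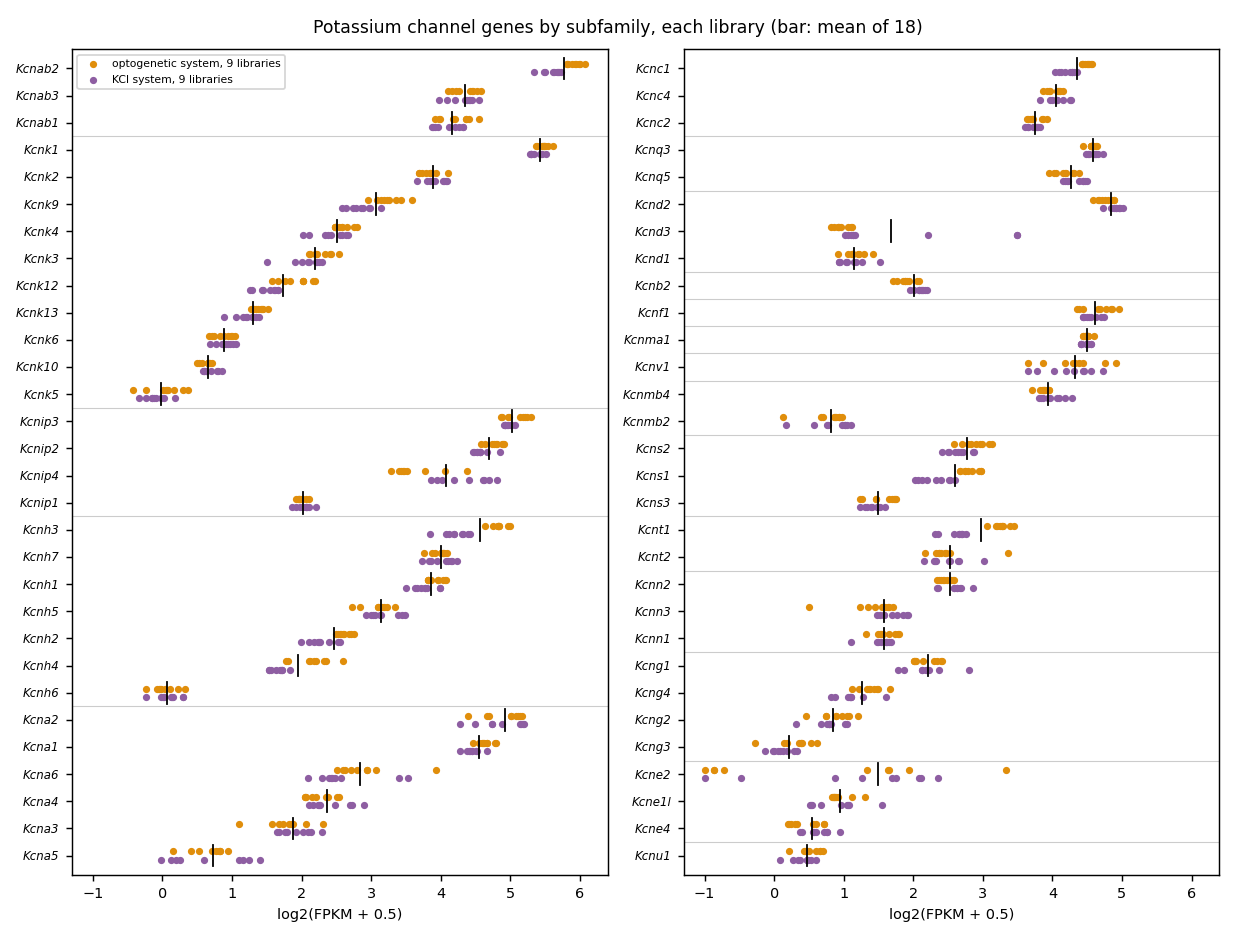
Level of potassium channel genes in every library, as log2(FPKM + 0.5), grouped by subfamily; orange points are the 9 optogenetic libraries, purple points the 9 KCl libraries and the black bar is the mean of 18. Kcnab2 at 54.1 FPKM and Kcnk1 at 42.6 FPKM lead, and single libraries lie apart for Kcnd3, Kcna6 and Kcne2.

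Members differed in how even they were across libraries. The highest library was under 1.5 times the lowest for 19 of the 63 members that average 0.5 FPKM or more across the 18 libraries (30.2%), against 42.1% of all genes. It was at least 5 times the lowest, or the lowest was 0, for Kcnd3 and Kcne2 (3.17%), against 3.54% of all genes.

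The SD hemisphere was set against the other side of the same mice to ask what differs between the sides of a brain. By the deposited group columns, read with the library titles, the SD side was always the left one. SD, its stimulus and any difference between left and right therefore cannot be told apart in this comparison. Kcnv1 (ENSMUSG00000022342.6, GRCm38 chromosome 15, 45106284 to 45114920) encodes a silent subunit that lowers the current of Kcnb channels when the proteins are expressed together. In the KCl system it was at 21.1, 21.4 and 26.1 FPKM in the SD hemisphere, against 12.1, 13.2 and 15.7 FPKM in the contralateral hemisphere. In the optogenetic system it was at 21.3, 26.5 and 29.6 FPKM in the SD hemisphere, against 12, 20.3 and 19.2 FPKM in the contralateral hemisphere. The sides did not overlap in either system, and the SD side was the higher one in 6 of 6 mice.

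Over the 12 libraries of both systems Kcnv1 was higher by 0.66 in the SD hemisphere than contralaterally on the log2(FPKM + 0.5) scale (SE 0.13, limma, Benjamini-Hochberg adjusted p = 0.0209). It was the 1 member called of 63 tested, against 0.962% of 12894 genes called higher and 1.7% called in either direction. A gene was called at an adjusted p under 0.05 over all genes tested. The difference within a mouse was 0.78, 0.68 and 0.72 in KCl mice and 0.80, 0.37 and 0.61 in optogenetic mice, in replicate order. With the mouse as a block the adjusted p was 0.00122, and it stayed between 0.000522 and 0.00848 when each mouse in turn was left out of that fit. Without the block the call ended when KCl SD replicate 3, KCl contralateral replicate 1 or 2, or optogenetic SD replicate 2 or 3 was left out (adjusted p 0.0522 to 0.0595, log2 difference 0.61 to 0.66). It also ended without both sides of KCl mouse 1 (adjusted p = 0.101), 2 (0.0926) or 3 (0.065) or of optogenetic mouse 3 (0.0546).

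Markers of excitatory neurons moved with Kcnv1 in part. Tbr1, a transcription factor of deep-layer excitatory neurons, was at 28.9 to 34.4 FPKM in the KCl SD hemisphere and at 22.4 to 24.6 contralaterally. Among optogenetic libraries it was at 27.7 to 29.9 FPKM in the SD hemisphere and at 17.6 to 24.8 contralaterally. It was higher by 0.43 on the SD side over both systems (SE 0.07, limma adjusted p = 0.00772), the 1 gene called of the 5 on that list. Its others included Slc17a7 at a log2 difference of 0.23, Neurod6 at 0.15 and Camk2a at 0.01, and none of the 5 was at 0 in any library. The list summed to 464 to 479 FPKM in the KCl SD hemisphere and 413 to 465 contralaterally, and to 462 to 476 and 419 to 429 FPKM on those sides in the optogenetic system. In these bulk samples fewer cells of a type and less RNA per cell cannot be told apart. Striatal markers had a median log2 difference of 1.55 between the sides in the KCl system and of -0.79 in the optogenetic system. The part of excitatory neurons or striatal tissue in the Kcnv1 difference was not tested.

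Against sham, the values of Kcnv1 lay differently in the systems. In the KCl system the SD hemisphere averaged 22.9 ± 2.78 FPKM and NaCl sham 20.1 ± 2.66, and the libraries overlapped (log2 difference 0.18, SE 0.13, limma adjusted p = 0.753). There the contralateral hemisphere was the one that did not overlap sham, at 12.1 to 15.7 FPKM against 17.9 to 23.1 FPKM (log2 difference -0.54, SE 0.13, adjusted p = 0.877). In the optogenetic system the SD hemisphere averaged 25.8 ± 4.21 FPKM and sham 17.1 ± 2.75, without overlap (log2 difference 0.58, SE 0.21, adjusted p = 0.497). The optogenetic contralateral hemisphere averaged 17.2 ± 4.55 FPKM. Tbr1 lay the same way: KCl contralateral libraries were at 22.4 to 24.6 FPKM, below NaCl sham at 26.6 to 29.0, and the optogenetic SD hemisphere was at 27.7 to 29.9, above sham at 20.2 to 23.6. The 8 activity genes, too, had lower values in KCl contralateral libraries than in NaCl sham, with a median log2 difference of -0.96. All 8 were at an unadjusted limma p under 0.05 and 0 were called. They summed to 346, 174 and 319 FPKM in NaCl sham and to 89.3, 140 and 170 in KCl contralateral libraries. The optogenetic sums were 116 to 132 FPKM contralaterally and 114 to 196 in sham, so 2 NaCl sham libraries stood above all of these. The part of Tbr1-expressing neurons or of neuronal activity, in sham or contralaterally, in the Kcnv1 values was not tested. None of these comparisons of Kcnv1 with sham passed over all genes, and the difference between the systems in SD against sham did not either (interaction -0.39, SE 0.26, adjusted p = 0.897).

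Another 3 members were higher on the SD side of all 6 mice and did not pass the test. Kcnk12, a tandem-pore subunit that carries little current by itself, was at 2.19, 2.67 and 2.56 FPKM in the KCl SD hemisphere, against 1.90, 1.94 and 2.22 contralaterally. It was at 3.58, 4.08 and 3.99 FPKM in the optogenetic SD hemisphere, against 2.49, 3.54 and 3.08 contralaterally. The sides were apart in the optogenetic system and overlapped in the KCl system, and the log2 difference over both was 0.28 (SE 0.08, limma adjusted p = 0.123). Kcne4, an ancillary subunit that inhibits some Kcna and Kcnq channels, was at 1.43, 1.01 and 1.19 FPKM in the KCl SD hemisphere, against 0.981, 0.970 and 0.796 contralaterally. Its optogenetic values were 1.14, 1.14 and 1.01 FPKM in the SD hemisphere, against 0.978, 0.678 and 0.653 contralaterally. Kcne4 did not overlap between sides in either system, at levels near the listing minimum (log2 difference 0.30, SE 0.09, adjusted p = 0.119). The silent subunit Kcng3 differed by 0.13 to 0.41 within mice (adjusted p = 0.548), at 0.328 to 1.03 FPKM.

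**Figure D2:**
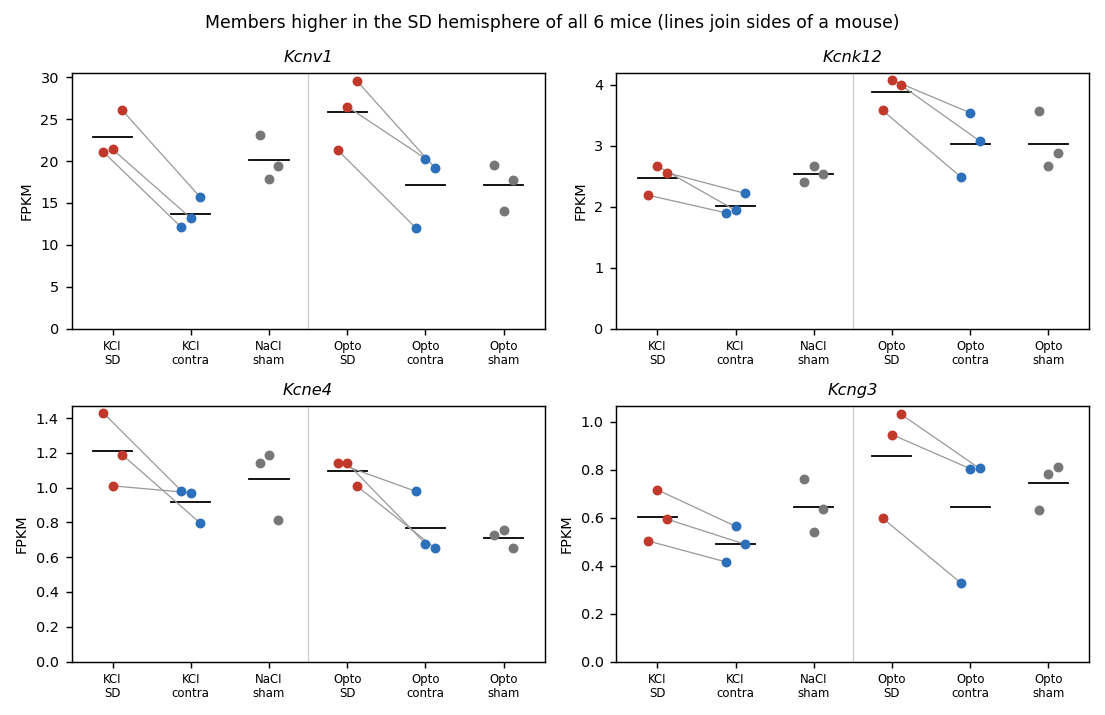
FPKM of Kcnv1, Kcnk12, Kcne4 and Kcng3 in each library by group, with lines that join the hemispheres of a mouse and bars for the mean of 3. The SD hemisphere lies above the contralateral one in 6 of 6 mice for each of these 4 genes.

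In all, 4 of 63 members were higher on the SD side of 6 of 6 mice (6.35%), against 3.37% of all genes, and 0 of 63 were lower in 6 of 6, against 6.78% of all genes. Kcna3 and Kcna4, both of the Kcna family, had log2 differences over both systems of 0.32 (SE 0.14, limma adjusted p = 0.342) and 0.22 (SE 0.10, adjusted p = 0.361). The median log2 difference of the members was -0.023 and that of all genes -0.021. An unadjusted p under 0.05 was found for 5 members (7.94%), all of them higher, against 12.8% of all genes and 3.92% of all genes on the higher side. With the mouse as a block that count was 8, and it was 3 without KCl SD replicate 2, KCl contralateral replicate 1 or 2, or optogenetic contralateral replicate 1. Among the high-level members, Kcnma1 differed between the sides of a mouse by -0.15 to 0.08, Kcnk1 by -0.07 to 0.18 and Kcnq3 by -0.08 to 0.10.

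**Figure D3:**
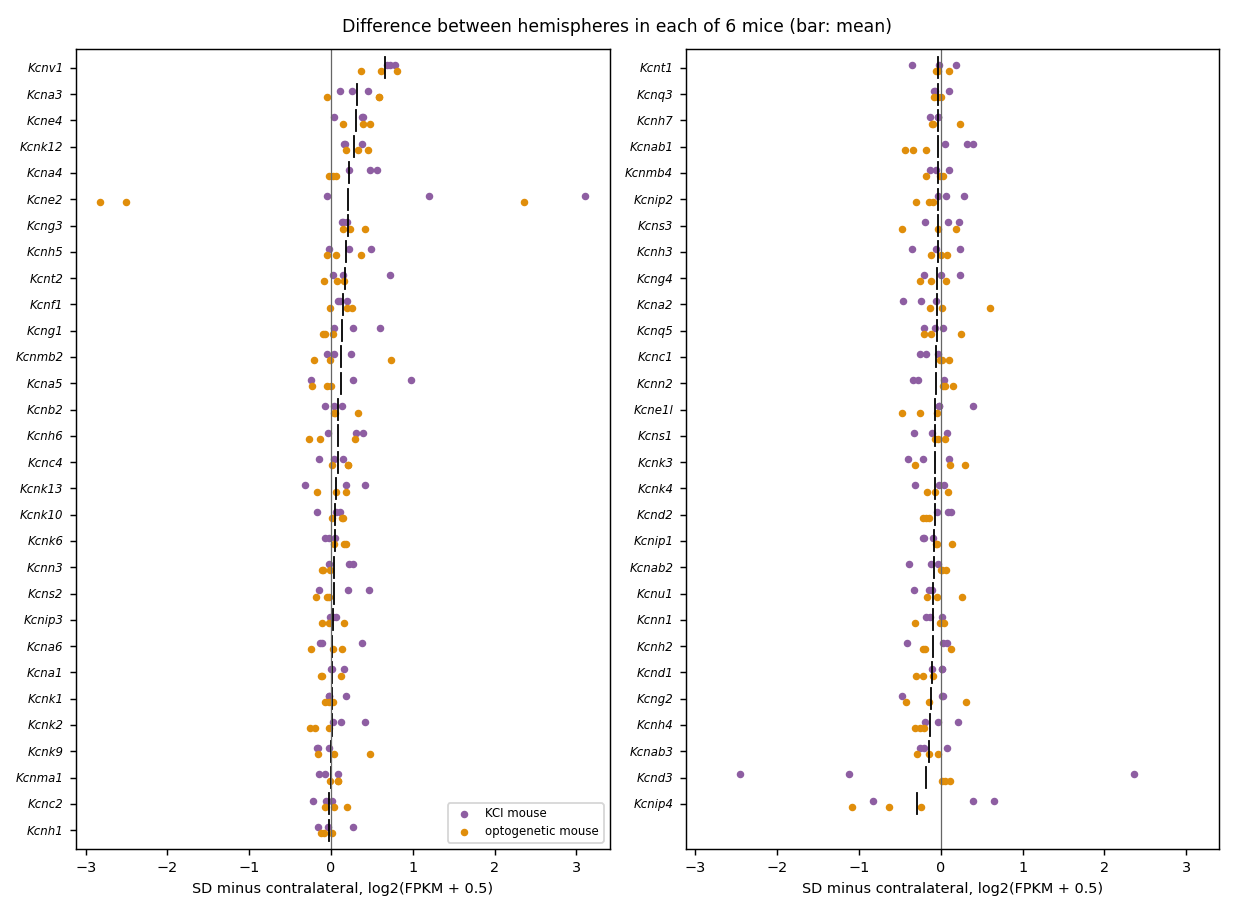
Difference between the SD and the contralateral hemisphere in log2(FPKM + 0.5), for members in each of 6 mice, ordered by the mean (black bar); purple points are KCl mice and orange points optogenetic mice. Kcnv1 leads with 0.37 to 0.80 in every mouse, while Kcne2 scatters from -2.82 to 3.11 and Kcnd3 from -2.46 to 2.36.

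Within the KCl system, 0 members were called by limma in SD against sham (0.0694% of all genes), 0 in SD against contralateral (0.347%) and 0 in contralateral against sham (0.00771%). An unadjusted p under 0.05 was found for 5 members in SD against sham (7.94%, against 7.92% of all genes) and for 6 in SD against contralateral (9.52%, against 9.88%). It was found for 7 in contralateral against sham (11.1%, against 5.6%). Of the 63 tested there, 6 were lower and 1 higher at that p, and 3.19% of all genes were lower, a direction not set in advance. The median log2 difference of the members in that comparison was -0.067, against -0.006 over all genes. These counts rest on few libraries: that of SD against sham was 9 without NaCl sham replicate 1, and it was 1 without NaCl sham replicate 3 or without SD replicate 1. That of SD against contralateral was 1 without contralateral replicate 2 and 3 without replicate 3, and that of contralateral against sham was 4 without contralateral replicate 2. Kcnv1 in SD against contralateral had a log2 difference of 0.73 (SE 0.13, adjusted p = 0.0727), and it passed in a fit of the 6 libraries with the mouse as a block (adjusted p = 0.0343) and without NaCl sham replicate 1 (0.0466). Over its alternatives that adjusted p ran from 0.0343 to 0.345.

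Several other members were among the 5 smallest p of a KCl comparison. Kcnmb2, a beta subunit that inactivates the large-conductance channel, was at 1.53, 1.52 and 1.57 FPKM in the SD hemisphere, against 0.986, 0.622 and 1.19 FPKM in NaCl sham. The groups did not overlap, and the log2 difference was 0.53 (SE 0.16, limma adjusted p = 0.439). Contralaterally Kcnmb2 was at 1.47, 1.21 and 1.64 FPKM. Kcnmb4 was at 13.5, 14.8 and 15.1 FPKM in the SD hemisphere and at 14.1, 13.8 and 16.6 contralaterally, against 16.2, 17.6 and 19.0 FPKM in NaCl sham. Both beta subunits stood apart from sham on the SD side, Kcnmb2 above it and Kcnmb4 below it (log2 difference -0.27, SE 0.09, adjusted p = 0.504). The contralateral side lay the same way from sham, so neither shift was particular to the SD side. Its log2 differences were 0.45 for Kcnmb2, without overlap, and -0.24 for Kcnmb4, with overlap (limma adjusted p = 0.877 for both). Kcnma1 itself averaged 21.5 FPKM in the SD hemisphere and 21.8 in NaCl sham. Kcnh3 and the gene Kcnh2, known for the rapid delayed rectifier of the heart, had log2 differences of -0.28 and -0.30 in SD against sham (adjusted p = 0.58 and 0.583). Kcna3 averaged lower contralaterally than in NaCl sham, at 2.62 to 2.91 FPKM against 3.30 to 4.42 (log2 difference -0.42, adjusted p = 0.877). Kcnk12 had a log2 difference of 0.24 in SD against contralateral (limma adjusted p = 0.474) and of -0.27 in contralateral against sham (adjusted p = 0.877). Kcnab1 had one of 0.30 in SD against sham (adjusted p = 0.551), and Kcna4 one of 0.42 in SD against contralateral (adjusted p = 0.498).

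Within the optogenetic system, 0 members were called by limma in SD against sham (0.477% of all genes), 0 in SD against contralateral (0.531%) and 0 in contralateral against sham (0.00769%). An unadjusted p under 0.05 was found for 8 members in SD against sham (12.5%, against 8.73% of all genes). Of the 64 tested, 7 were higher and 1 lower at that p, and 3.72% of all genes were higher, a direction not set in advance. An unadjusted p under 0.05 was found for 9 in SD against contralateral (14.1%, against 8.72%) and for 10 in contralateral against sham (15.6%, against 5.8%). The comparisons with sham share the sham libraries, so members that stand apart from sham on both sides are counted in both. Without sham replicate 2 the count of SD against sham was 5. The count of SD against contralateral was 2 without SD replicate 3 and 5 without SD replicate 2 or contralateral replicate 1 or 2, and that of contralateral against sham was 6 without contralateral replicate 2. Kcnv1 in optogenetic SD against contralateral had a log2 difference of 0.60 (SE 0.21, limma adjusted p = 0.443), which did not pass with the mouse as a block on 6 libraries either (adjusted p = 0.166). Over its alternatives the difference was 0.36 to 0.73 and the adjusted p 0.166 to 0.866.

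Kcnip3, also known as the transcriptional repressor DREAM, was at 34.8, 36.6 and 35.9 FPKM in the optogenetic SD hemisphere and at 31.1, 37.2 and 38.7 contralaterally, against 29.0, 30.7 and 28.6 FPKM in sham. Sham lay below both sides, with log2 differences of 0.28 for the SD side (SE 0.08, limma adjusted p = 0.346) and 0.27 for the contralateral side (adjusted p = 0.843). Kcna5 was at 1.20, 1.14 and 1.27 FPKM in the SD hemisphere and at 1.26, 1.42 and 1.27 contralaterally, against 0.616, 0.825 and 0.940 FPKM in sham. It also lay above sham on both sides (0.40 and 0.50, adjusted p = 0.324 and 0.786). In the KCl system Kcna5 ranged from 0.485 to 2.14 FPKM without order by group. Its 4 highest KCl libraries, at 1.65 to 2.14 FPKM, had striatal sums of 280 to 407 FPKM. Its 3 libraries at 0.485 to 0.641 FPKM had sums of 65.6 to 89.9. Between them lay KCl SD replicate 2, at 0.687 FPKM with a sum of 275, and NaCl sham replicate 2, at 1.01 with 164. These sets were formed after the values were seen. The striatal sums of the optogenetic libraries were 238, 268 and 152 FPKM in the SD hemisphere, 338, 387 and 345 contralaterally and 121, 308 and 187 in sham. The summed level of 8 markers of inhibitory interneurons was 470 to 527 FPKM in the optogenetic SD hemisphere and 497 to 535 contralaterally, against 466 to 477 in sham. Their median log2 difference from sham was 0.05 on the SD side, with 1 of 8 higher at an unadjusted limma p under 0.05. Contralaterally it was 0.18, with 3 of 8, and 0 were called on either side. Of the 8, Pvalb lay the other way, at 49.5 to 50.7 FPKM in the SD hemisphere against 51.0 to 65.0 in sham. The part of these tissues and cells in the Kcna5 and Kcnip3 values was not tested. Kcne4 was at 1.01 to 1.14 FPKM in the SD hemisphere, against 0.655 to 0.758 in sham (log2 difference 0.39, SE 0.12, adjusted p = 0.369), and Kcnf1 at 25.3 to 30.5 FPKM, against 19.9 to 24.6 (0.37, SE 0.12, adjusted p = 0.459).

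Kcnip4, a calcium sensor with an isoform that removes fast inactivation from Kcnd channels, gave the smallest p in optogenetic SD against contralateral. It was at 10.3, 11.0 and 9.29 FPKM in the SD hemisphere, against 16.2, 13.2 and 20.4 FPKM contralaterally. Optogenetic sham was at 10.5, 10.6 and 10.1 FPKM, so the contralateral libraries stood above both other groups. The log2 difference between the sides was -0.65 (SE 0.13, limma adjusted p = 0.112), and the gene passed without optogenetic contralateral replicate 2 (-0.80, adjusted p = 0.0234). It did not pass with the mouse as a block on the 6 libraries of the sides (adjusted p = 0.333), and over its alternatives the adjusted p ran from 0.0234 to 0.509. In the KCl system Kcnip4 ranged more widely and without order by group, at 27.5, 14.0 and 23.9 FPKM in the SD hemisphere, 20.7, 25.4 and 15.0 contralaterally and 15.7, 17.7 and 24.2 in NaCl sham. Striatal markers were also highest in the optogenetic contralateral libraries, at 338 to 387 FPKM. They summed to 152 to 268 FPKM in the optogenetic SD hemisphere and to 121 to 308 in sham. Optogenetic sham replicate 2 had the 308, with Kcnip4 at 10.6. The KCl sums in replicate order were 323, 275 and 407 FPKM in the SD hemisphere, 366, 65.6 and 72.7 contralaterally and 280, 164 and 89.9 in NaCl sham. Kcnip4 was at 25.4 FPKM beside the lowest of these, 65.6, and at 23.9 beside the highest, 407. The part of striatal tissue in the Kcnip4 values was not tested.

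The effect of SD was compared between the systems by an interaction over all 18 libraries, and 0 members were called in SD against sham or in SD against contralateral, with 0% of all genes called in either. An unadjusted p under 0.05 was found for 7 members in SD against sham (11.1%, against 5.53% of all genes) and for 6 in SD against contralateral (9.52%, against 6.14%). The first count was 2 to 4 without KCl SD replicate 1, KCl contralateral replicate 2, NaCl sham replicate 1 or 3, optogenetic SD replicate 3 or optogenetic sham replicate 2 or 3. The second was 2 or 3 without KCl contralateral replicate 2 or 3, optogenetic SD replicate 3 or optogenetic contralateral replicate 2. In SD against sham the smallest p was that of Kcnip3, whose interaction was -0.27 (limma adjusted p = 0.879), with the KCl effect at 0.01 and the optogenetic effect at 0.28. Kcnab1 and Kcnk2 were higher on the SD side of all 3 KCl mice and lower on the SD side of all 3 optogenetic mice. Such a split was found for 3.17% of the members and 4.27% of all genes.

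Kcnab1, a beta subunit that gives Kcna channels fast inactivation, was at 19.5, 18 and 19.5 FPKM in the KCl SD hemisphere, against 18.8, 14.4 and 14.7 FPKM contralaterally. In the optogenetic system it was at 17.6, 18 and 15.2 FPKM in the SD hemisphere, against 20.0, 22.9 and 20.8 FPKM contralaterally. The KCl difference was 0.26, the optogenetic one -0.32, and their interaction 0.58 (SE 0.17, limma adjusted p = 0.651). For Kcnk2, a mechanosensitive and lipid-sensitive leak channel, the differences were 0.18 and -0.16, with an interaction of 0.34 (SE 0.13, adjusted p = 0.703). Striatal markers had the same split, with a median interaction of 2.43 over 8 genes, 7 of them at an unadjusted p under 0.05 and 0 called. Kcnab1 lay between 14.2 and 15.4 FPKM in the 7 libraries whose striatal markers summed to less than 200 FPKM, and between 16.9 and 22.9 FPKM in the 11 others. Kcnk2 was at 12.2 to 14.3 FPKM and at 13.3 to 16.7 FPKM in those libraries. None of the 8 striatal genes was at 0 in any library. The part of striatal tissue in the values of Kcnab1 and Kcnk2 was not tested, and the limit of 200 FPKM was chosen after the values were seen.

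Kcne2, an ancillary subunit that choroid plexus epithelium expresses strongly, did not follow the groups. In the KCl system it was at 2.74, 3.72 and 3.81 FPKM in the SD hemisphere, 2.85, 1.34 and 0 contralaterally and 1.91, 4.63 and 0.217 in NaCl sham. The optogenetic libraries were at 0.0464, 2.62 and 0.0489 FPKM in the SD hemisphere, 3.35, 0.107 and 2.64 contralaterally and 2.03, 0 and 9.56 in sham. Each group but the KCl SD one held both high and low libraries. In the 6 libraries with Ttr, the choroid plexus gene for transthyretin, at 2.57 to 23.4 FPKM, Kcne2 was at 0 to 0.217 FPKM. In the 12 libraries with Ttr at 311 to 1090 FPKM it was at 1.34 to 9.56 FPKM. The choroid plexus genes Otx2 and Cldn2 were listed at 0 in at least 1 library. The limit between the sets, a Ttr level of 100 FPKM, was chosen after the values were seen, and the part of choroid plexus in the Kcne2 values was not tested.

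**Figure D4:**
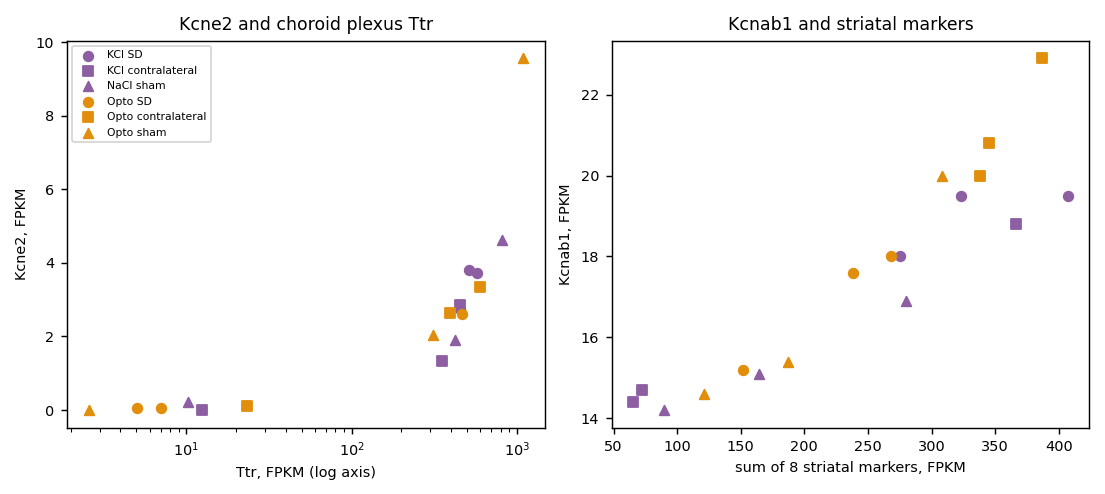
Left, Kcne2 against Ttr (log axis), and right, Kcnab1 against the sum of 8 striatal markers, both in FPKM with 1 point per library; colour gives the system and shape the group. Kcne2 is at 0.217 FPKM or less wherever Ttr is at 23.4 FPKM or less, and Kcnab1 is at 15.4 FPKM or less wherever the striatal sum is under 200 FPKM.

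Kcnd3, a pore-forming subunit of the A-type current, lay on separate levels that cut across the groups. It was at 1.64, 10.7 and 1.52 FPKM in the KCl SD hemisphere, 4.15, 1.69 and 10.7 contralaterally and 1.70, 1.59 and 1.73 in NaCl sham. All 9 optogenetic libraries were between 1.26 and 1.67 FPKM. The 3 high libraries came from 3 different mice, and in each the other hemisphere was at the low level. The difference of KCl SD from sham therefore rests on the library at 10.7 FPKM (0.75, SE 0.71, limma adjusted p = 0.843). That of KCl contralateral from sham rests on those at 4.15 and 10.7 FPKM (1.16, SE 0.71, adjusted p = 0.881). Kcna6 was high in both hemispheres of KCl mouse 1, at 10.1 FPKM on the SD side and 11.1 contralaterally, and in optogenetic sham replicate 2, at 14.8, while all other libraries were between 3.77 and 7.91 FPKM. Single optogenetic sham libraries also stood apart for Kcnt2, with 9.78 FPKM in replicate 1 beside 4.69 and 4.78, and for Kcnn3, with 0.911 FPKM in replicate 3 beside 1.86 and 2.43.

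**Figure D5:**
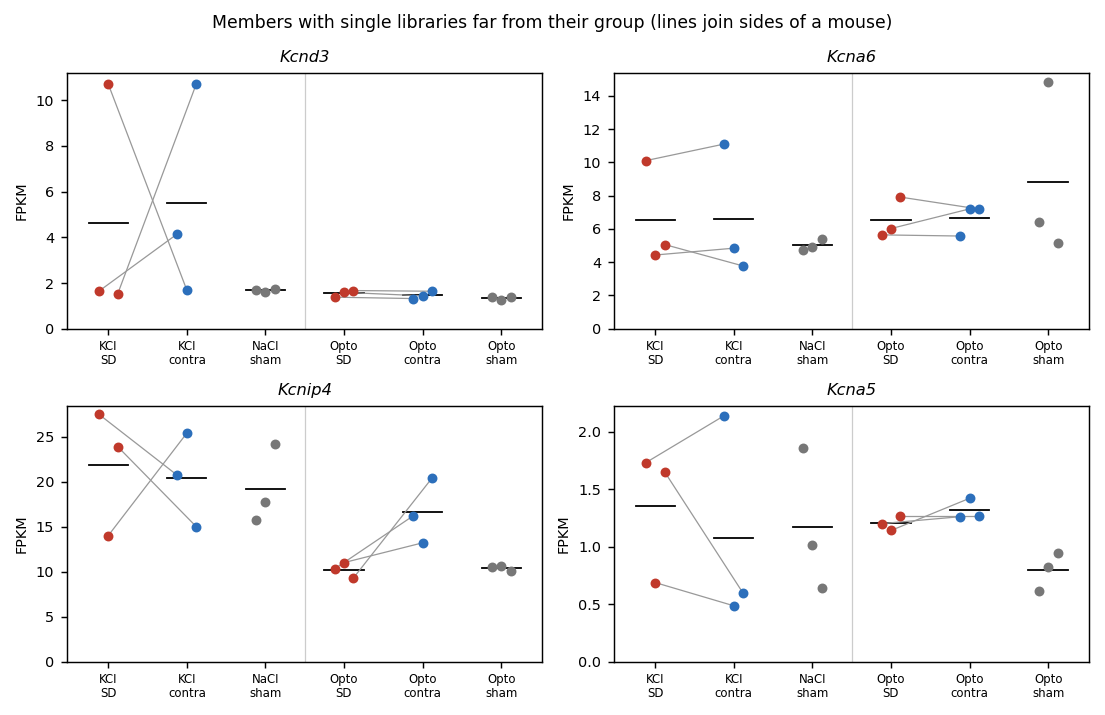
FPKM of Kcnd3, Kcna6, Kcnip4 and Kcna5 in each library by group, with lines that join the hemispheres of a mouse and bars for the mean of 3. Kcnd3 reaches 4.15 to 10.7 FPKM in 3 libraries of 3 KCl mice and is at 1.73 FPKM or less elsewhere, and Kcnip4 in the optogenetic system is highest contralaterally.

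Levels also differed between the systems, whatever the group. For 7 of 63 members all 9 optogenetic libraries lay above all 9 KCl libraries (11.1%), against 6.46% of all genes, and for 0 members they all lay below, against 3.06% of all genes. Kcnt1, whose product opens with intracellular sodium, averaged 9.14 ± 0.762 FPKM in optogenetic libraries and 5.60 ± 0.634 in KCl libraries, 1.63 times as high. Kcnh3 averaged 28.1 ± 2.11 FPKM in optogenetic libraries and 18.1 ± 2.22 in KCl libraries (1.55 times), and the silent subunit Kcns1 6.57 ± 0.61 in optogenetic and 4.51 ± 0.736 in KCl libraries (1.46 times). Kcnab2 averaged 60.1 ± 3.86 FPKM in optogenetic libraries and 48.1 ± 4.12 in KCl libraries (1.25 times), and the smallest ratio of the 7 was that of Kcnc1, at 1.21 times. The systems share no mouse and differ in genotype, stimulus and deposited table, whose parts in these levels cannot be told apart, and levels set across the tables were not tested.

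Of 28 genes whose proteins are known to bind, anchor or work beside these channels, 26 were tested and 0 were called by limma in any of the 9 comparisons. Akap5, a scaffold that brings kinases to Kcnq and other channels, had a log2 difference of 0.77 in KCl SD against contralateral (SE 0.20, adjusted p = 0.263) and of 0.09 in the optogenetic system (SE 0.10, adjusted p = 0.86). Hcn2, a cation channel opened by hyperpolarization, was at -0.19 in optogenetic SD against sham (SE 0.06, adjusted p = 0.432) and at -0.11 between the sides over both systems (adjusted p = 0.382).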

How the data were processed

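Expression was computed with StringTie on GRCm38, per the submitters' processing notes, and no version is given. The authors deposited FPKM per library for protein-coding genes in 6 tables. The deposited tables also hold the authors' log2 fold change and its linear ratio, their p-values and q-values, and group columns of mean log2(FPKM + 1). Libraries summed to 223564 to 237318 FPKM after KCl or NaCl and to 217205 to 225813 in Thy1-ChR2-YFP mice, over the listed genes.

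The test was limma 3.58.1 (R 4.3.3) on log2(FPKM + 0.5), with a mean-dependent prior variance. Genes averaging at least 0.5 FPKM over the libraries of a fit were kept, with Benjamini-Hochberg adjustment over all of them. Each system was fitted with its 9 libraries, the sides of both systems with 12 libraries and a system term, and interactions with 18. Fits were tested on simulated data. Fold changes on this scale understate changes of low genes. Same-numbered left (SD) and right (contralateral) libraries are sides of 1 mouse by their titles. Deviations of the 2 sides correlated at 0.04 to 0.07 in KCl mice and at -0.09 to 0.14 in optogenetic mice. Sham mice share only the number.

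The members and the lists of partners and markers were chosen with earlier results of these data known. Named members were drawn from the highest and lowest of each subfamily, a set of major channels, and those called or among the 5 smallest p of each comparison. Not every member of these sets is named, nor in every comparison where it falls in them. Those members and 1 marker are counted but not reported by name here. Kcng3, Kcna6, Kcnt2, Kcnn3 and Kcns1 were named after their values were seen. Alternatives were pseudocounts of 0.1 and 1, other filters and scalings, a constant prior variance, replicate or mouse blocks, the authors' p-values and leaving out libraries.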

Additional observations from a re-analysis of the deposited data

Results flagged for a closer look

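Kcnab1 and Kcnk2 went in opposite directions between the hemispheres in the 2 systems. For Kcnab1 every KCl mouse was higher on the SD side and every optogenetic mouse lower, and the KCl effect minus the optogenetic effect was 0.58 on the log2 scale. The interaction had an adjusted p of 0.651 by limma. For Kcnk2 the same split gave a difference of 0.34, with an adjusted p of 0.703 by limma. In replicate order, Kcnk2 differed within a mouse by 0.02, 0.12 and 0.41 in KCl mice and by -0.03, -0.26 and -0.20 in optogenetic mice. Kcnab1 differed by 0.05, 0.32 and 0.39 in KCl mice and by -0.18, -0.34 and -0.44 in optogenetic mice. Some of these differences are small. Such a split was found for 3.17% of the members and 4.27% of all genes. Striatal markers had the same split, with a median interaction of 2.43 over 8 genes.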

How the results depend on the processing

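Each count of called members was recomputed under other settings, and 992 alternative values were computed for 45 results of named members. Of these 980 kept their direction and their side of the threshold, 9 lost the threshold, 3 passed it and 0 turned round. All 9 losses were of Kcnv1 over both systems, the 1 result called in the main fits. The other results were not called there, so they had no call to lose. The call of Kcnv1 between the hemispheres over both systems was the main result that depended on the processing. The count was 0 to 1 when each library was left out. It was 0 without KCl mouse 1, 2 or 3 or optogenetic mouse 3, both sides removed, and 1 in each of these fits with the mouse as a replicate block, alternatives chosen after seeing the data. The count of 0 in KCl SD against contralateral became 1 with the mouse as a replicate block on 6 libraries, and 0 to 1 when each library was left out. For optogenetic SD against contralateral it was 0 to 1 when each library was left out. The replicate block changed no other count of called members. Counts of members at an unadjusted p under 0.05 varied from 1 to 9 in KCl SD against sham, 1 to 8 in KCl SD against contralateral and 3 to 11 over both systems. Calls of genes near 0.5 FPKM, such as Kcnk5 and Kcng3, are limited by their low level, and a fold change there depends on the pseudocount. Depth is unknown, so no limit from counting can be given.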
